A study of Homo sapiens with 2 samples.

Results

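The hairpins mir-146a, mir-146b and mir-155 give the microRNAs (miRNAs) best known as products of inflammatory signalling. They were chosen by precursor name, and both arms were kept where listed. This gave 5 rows of 1546, from 3 hairpins of 1095: miR-146a-5p, miR-146a-3p, miR-146b-5p, miR-146b-3p and miR-155-5p. MiR-155-3p had no row. The guides are listed as hsa-miR-146a-5p, hsa-miR-146b-5p and hsa-miR-155-5p, and the species prefix is left out below. Small RNAs were sequenced from A375 cells, an established human melanoma line, in 1 group of 2 libraries (replicates 1 and 2). All cells had received DMSO, the usual solvent vehicle, for 48 h. The question of the series was how miRNAs regulate BRAF-X1 mRNA, and with a single group no condition was compared. Nothing in the labels says what made the replicates independent, so the spread between these samples may be technical.

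A miRNA hairpin is cut into a 5p and a 3p arm. Usually 1 arm, the guide, is loaded into Argonaute and pairs with messenger RNAs through its seed, bases 2 to 8, while the other, the passenger, is mostly degraded. MiR-146a is switched on by NF-kB, the central transcription factor of inflammation. It lowers TRAF6 and IRAK1, signalling proteins of the same pathway, which makes it a textbook negative feedback. MiR-146b has the same seed but its own locus. MiR-155, made from the noncoding gene MIR155HG (BIC), rises in activated lymphocytes and macrophages and represses INPP5D and SOCS1, brakes of immune signalling. In melanoma, miR-146a has been linked to growth through the Notch inhibitor NUMB.

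The mature sequences from RefSeq (GRCh38.p14), with seeds in capitals, show which arms can share targets; all 5 names were matched.
miR-146a-5p: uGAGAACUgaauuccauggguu
miR-146b-5p: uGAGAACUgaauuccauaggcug
miR-155-5p: uUAAUGCUaaucgugauagggguu
miR-146a-3p: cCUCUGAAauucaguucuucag
miR-146b-3p: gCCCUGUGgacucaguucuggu

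MiR-146a-5p and miR-146b-5p carried the same seed, and the other arms each had a different one. Over the 22 positions compared, counted from 1 at the 5′ end, the paralogs were identical at 20 and differed by G18A and U21C (miR-146a-5p base first). MiR-146b-5p has 1 further base at its 3′ end, with a length of 23 against 22. The first 17 bases were identical, so a read that ended there could not be told apart between them. No minimum read length is stated. Among 2370 mature names in the RefSeq table, miR-7153-5p was the only other with this seed, and it had no row. No other name there shared the seed of miR-155-5p.

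The hairpins of the paralogs, with both arms in capitals, show how much less the rest of the precursor is shared.
MIR146A: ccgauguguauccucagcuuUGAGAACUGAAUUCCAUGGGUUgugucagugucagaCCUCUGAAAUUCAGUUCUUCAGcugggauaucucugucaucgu
MIR146B: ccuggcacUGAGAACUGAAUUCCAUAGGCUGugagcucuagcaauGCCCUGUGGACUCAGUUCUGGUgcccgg

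In both, 14 bases lie between the arms. The 3p arms were identical at 6 of 22 positions when aligned from their first base. Their longest common run, UCAGUUCU, is 8 bases long and is the reverse complement of bases 3 to 10 of miR-146a-5p. It does not begin at the same base in both 3p arms, so the count from the first base understates what they share. In GENCODE 29 (GRCh38), MIR146A lies at chr5:160485352-160485450 on the plus strand, in an exon of the long noncoding gene MIR3142HG. MIR155 lies at chr21:25573980-25574044 on the plus strand, in an exon of MIR155HG. MIR146B lies at chr10:102436512-102436584 on the plus strand, outside any annotated gene, 3851 bases from CUEDC2. MiR-3142, which shares the host gene of miR-146a, had no row.

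Because NF-kB is the known activator, the promoters of the host genes (RefSeq, GRCh38.p14, 250 bases before to 50 after the start) were searched on both strands for the general kappaB motif and for the AP-1 sequence TGAGTCA. No match to one overlapped a match to the other. The stretch of each that held a match is shown with the match in capitals.
MIR3142HG, chr5:160468111-160468160, plus strand: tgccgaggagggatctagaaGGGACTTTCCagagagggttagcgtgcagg
MIR155HG, chr21:25562065-25562111, plus strand: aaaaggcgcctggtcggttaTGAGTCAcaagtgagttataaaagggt

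The MIR3142HG promoter held the general kappaB motif once, as GGGACTTTCC, beginning 120 bases before the start. The general motif was found in 11.3% of 35116 promoters of this length, and these exact letters, searched once they had been seen here, in 0.191%. This promoter held no TGAGTCA. The MIR155HG promoter held TGAGTCA once, beginning 60 bases before the start, a sequence found in 4.95% of promoters. It held no match to the general kappaB motif. These matches are letters in a window, and binding was not measured.

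Replicate 1 held 10816826 and replicate 2 held 15428446 read assignments. Levels are in RPM, reads per 1000000 assignments, on which scale a single read was worth 0.0924 and 0.0648 RPM. The 5 rows together took 19958 reads in replicate 1 and 45271 in replicate 2, or 0.185% and 0.293% of all assignments. Of 5 markers chosen for melanocytic cells, 4 (80%) reached 10 RPM in both libraries, as did 22.4% of all 1497 mature names. MiR-204-5p stood at 2632 ± 190 RPM (SD, n = 2), and miR-508-3p, miR-509-3p and miR-514a-3p averaged 76.9 to 281 RPM. MiR-211-5p, made in the melanocyte gene TRPM1, had 3 and 2 reads, at or below the 3 counts that a count of 0 allows. Of 7 blood cell markers 5 had a row and only miR-486-5p, a red cell miRNA, reached 10 RPM, at 186 ± 20.7 RPM. That is 20% of the listed markers, near the 22.4% of all names. Of 2 endothelial markers both (100%) reached 10 RPM in both libraries. MiR-126-5p, at 200 ± 55.4 RPM, stood above miR-508-3p and miR-514a-3p and below miR-204-5p and miR-509-3p, and miR-126-3p averaged 25.4 RPM. Reaching 10 RPM was thus not particular to the melanocytic markers.

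The 3 guides stood at very different levels, high for miR-146a, intermediate for miR-146b and near the limit of counting for miR-155. MiR-146a-5p had 1551 RPM in replicate 1 and 2527 RPM in replicate 2 (16780 and 38987 reads), a mean of 2039 ± 690 RPM. It was number 50 by mean level among 1497 mature names. MiR-146b-5p had 282 and 394 RPM (3052 and 6072 reads), a mean of 338 ± 78.8 RPM, and was number 108. Both guides were thus far above the level of 10 RPM used here to call a miRNA expressed, which 335 names reached in both libraries.

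MiR-155-5p had 1.39 RPM in replicate 1 and 0.972 RPM in replicate 2, which is 15 reads in each library. The exact 95% Poisson intervals ran from 0.776 to 2.29 RPM and from 0.544 to 1.60 RPM. These overlap and lie above the 0.277 and 0.194 RPM that a count of 0 allows (3 reads), so the miRNA was detected but its level was known only loosely. It was number 604 of the 1497 names, with 893 names below it. Intervals cover counting error only, since PCR reads are not independent molecules.

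**Figure D1:**
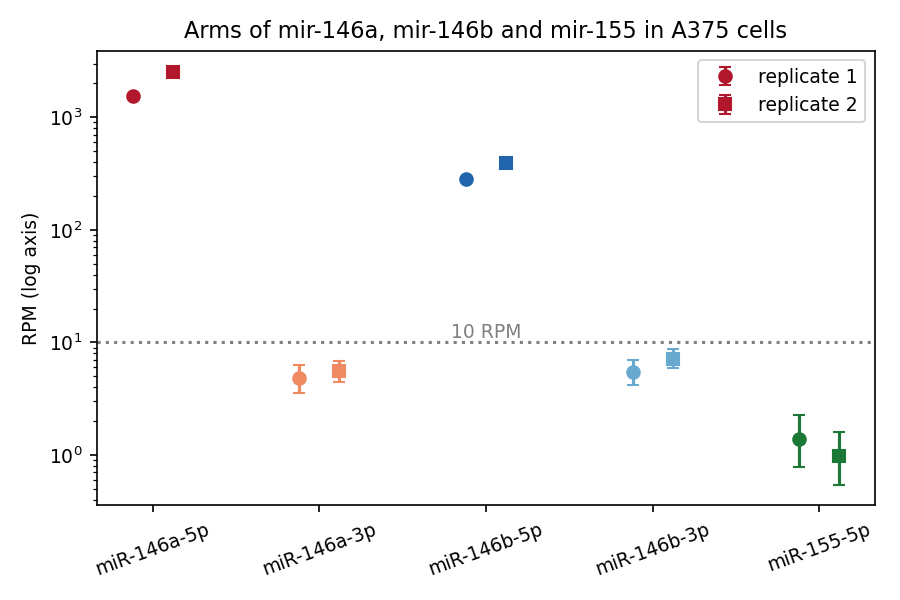
RPM of each listed arm on a log axis, circles for replicate 1 and squares for replicate 2, with exact 95% Poisson intervals; the dotted line marks 10 RPM. The 5p arms of mir-146a and mir-146b stand at 282 to 2527 RPM, while both of their 3p arms and miR-155-5p lie below 10 RPM in each library.

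The order of the guides, miR-146a-5p, then miR-146b-5p, then miR-155-5p, was the same in both libraries. MiR-146a-5p was 5.50-fold above miR-146b-5p in replicate 1 (counting interval 5.29 to 5.72) and 6.42-fold above it in replicate 2 (6.25 to 6.60). On the log2(RPM + 1) scale this was 2.57 ± 0.16 (SD, n = 2), larger than the spread between the libraries. With 2 libraries no permutation test could pass 0.05, and none was run. The passenger arms did not follow this order. MiR-146a-3p had 4.81 and 5.57 RPM, against 5.45 and 7.19 RPM for miR-146b-3p. The ratio was 0.881 in replicate 1 (0.595 to 1.30) and 0.775 in replicate 2 (0.578 to 1.04), so a difference between the passengers was not detectable at this depth.

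MiR-155-5p stood below every other listed arm, passengers included. MiR-146a-5p exceeded it 1119-fold in replicate 1 (678 to 1999) and 2599-fold in replicate 2 (1576 to 4644). MiR-146b-5p exceeded it 203-fold (123 to 364) and 405-fold (245 to 724). The passenger miR-146a-3p was 3.47-fold (1.92 to 6.63) and 5.73-fold (3.29 to 10.7) above it. Adapter ligation favours some sequences, so ratios of RPM between miRNAs are approximate.

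**Figure D2:**
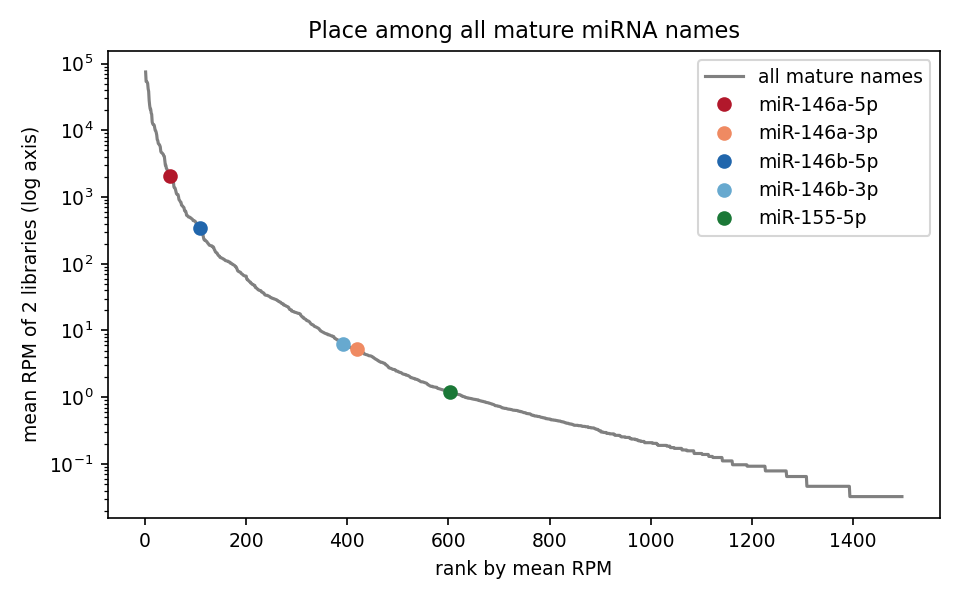
Mean RPM of the 2 libraries on a log axis against rank for all 1497 mature names (grey line), with the 5 listed arms as coloured points. MiR-146a-5p (number 50) and miR-146b-5p (number 108) lie on the steep upper part, the passengers at numbers 392 and 420, and miR-155-5p at number 604 on the flat part.

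The seed GAGAACU, shared by both miR-146 guides, made up 1833 RPM in replicate 1 and 2921 RPM in replicate 2. MiR-146a-5p supplied 84.6% and 86.5% of it, and miR-146b-5p 15.4% and 13.5%. Most of the pool was thus assigned to the MIR3142HG locus in both libraries. How the authors assigned reads too short to separate the paralogs is not stated.

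Both miR-146 hairpins strongly favoured the 5p arm. In mir-146a the 5p arm held 99.7% of the reads of both arms in replicate 1 (exact binomial interval 99.6 to 99.8) and 99.8% in replicate 2 (99.7 to 99.8), or 323-fold and 453-fold more than the 3p arm. In mir-146b it held 98.1% (97.6 to 98.6) and 98.2% (97.8 to 98.5), or 51.7-fold and 54.7-fold more. The intervals of the paralogs did not overlap in either library, so mir-146a was the more one-sided by the reads as assigned. These intervals cover counting error only, and not how reads too short to separate the 5p arms were assigned. The 3p arm of mir-146a had 52 and 86 reads, and that of mir-146b 59 and 111.

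Among the 137 hairpins whose 5p and 3p arms were both listed, at 100 RPM or more in sum, mir-146a was number 20 by its 5p share and mir-146b number 47. The 5p arm led by over 2-fold in both libraries in 80 of them (58.4%), and the median share of the stronger arm was 98.0%. The arm preference of mir-146b was close to that median and that of mir-146a was beyond it, as in 50 hairpins where 1 arm held over 99%. The nearest hairpins above mir-146a (mean share 99.74%) were mir-486-1 (99.74%) and mir-149 (99.74%), and below it let-7g (99.72%) and let-7a-1 (99.71%). Those around mir-146b (98.15%) were mir-138-1 (98.23%) and mir-16-2 (98.15%) above, and mir-196b (98.10%) and mir-9-3 (98.04%) below. Several of these, such as let-7a-1 and mir-16-2, share a mature arm with another hairpin, which mir-146a and mir-146b do not.

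**Figure D3:**
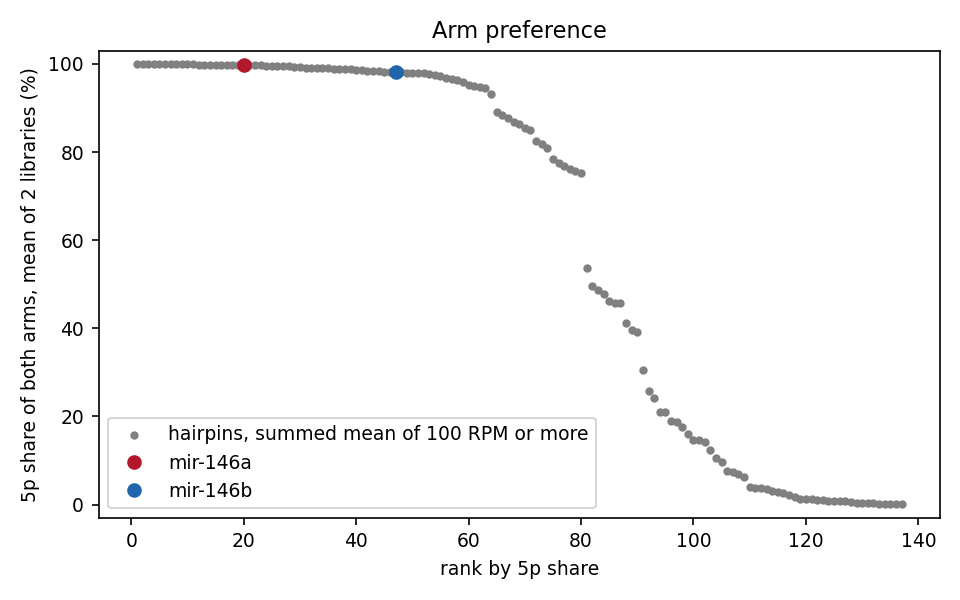
Share of the 5p arm in the reads of both arms (mean of 2 libraries, %) against rank for the 137 hairpins at 100 RPM or more over both arms. Mir-146a (red, 99.7%) and mir-146b (blue, 98.2%) both lie on the upper shelf of hairpins that give almost only the 5p arm.

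The replicates were then compared. Both miR-146 guides were lower in replicate 1 than in replicate 2. The difference of log2(RPM + 1), replicate 1 minus replicate 2, was -0.70 for miR-146a-5p (a 1.63-fold gap) and -0.48 for miR-146b-5p (a 1.39-fold gap). Both passengers had values of the same sign, -0.18 for miR-146a-3p and -0.34 for miR-146b-3p, while miR-155-5p had 0.28. None of these passed 2-fold, which 1.73% of 346 names with a mean of 10 RPM or more did. Only 2 of the arms, miR-146a-5p and miR-146b-5p, belong to those 346 names. With so few, none passing is near the share over all and shows nothing particular to them.

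The gap of miR-146a-5p was larger than that of most names. Over the 346 names the median absolute difference was 0.25, 40.8% were higher in replicate 2, and 15 names (4.34%, itself included) had a difference at least as large. For miR-146b-5p it was 53 names (15.3%). Among the 66 names with a mean of 1000 RPM or more, a limit chosen after the values were seen, miR-146a-5p had the largest difference of all, followed by miR-181b-5p at 0.56. It remained the largest of the 66 under the 3 other scalings tried. Each scaling multiplies a library by a single factor and cannot reorder names that differ in the same direction, so this is a weak check. The median ratio of the libraries, replicate 1 over replicate 2, was itself 0.10 on the log2 scale. Relative to it the values were -0.81 for miR-146a-5p and -0.58 for miR-146b-5p.

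**Figure D4:**
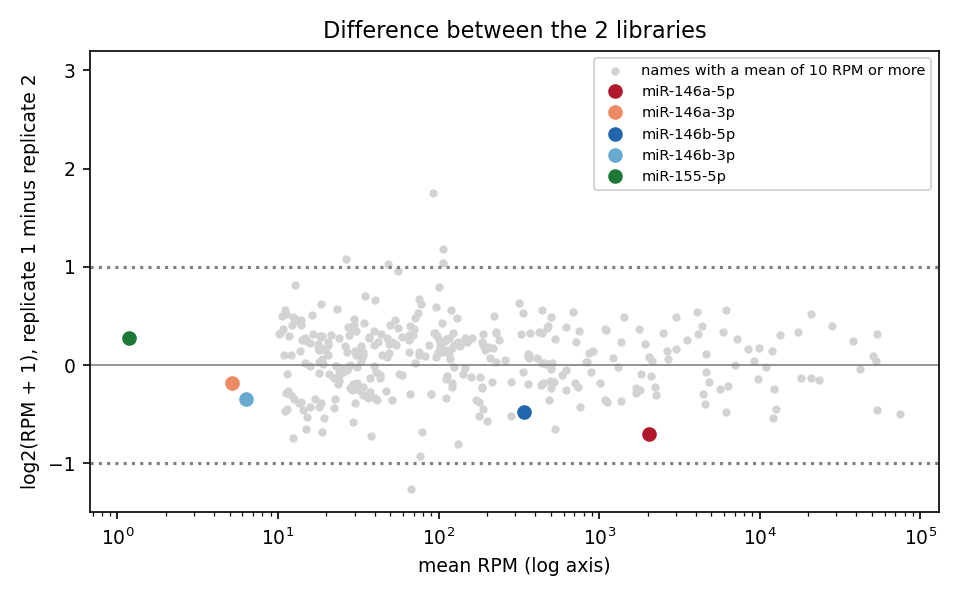
Difference of log2(RPM + 1), replicate 1 minus replicate 2, against mean RPM (log axis) for names with a mean of 10 RPM or more (grey) and the 5 listed arms (coloured); dotted lines mark 2-fold. MiR-146a-5p at -0.70 lies at the lower edge of the points at its level, and all 4 miR-146 arms lie below 0.

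On reads, a two-sided Fisher's exact test over 869 names with Benjamini-Hochberg adjustment separated the libraries for miR-146b-5p (adjusted p = 2.4e-51) and for miR-146a-5p, whose p the software returned as 0. By the same exact test, adjusted p was 0.64 for miR-146a-3p, 0.19 for miR-146b-3p and 0.56 for miR-155-5p. Without a fold limit 34.5% of the names passed this test, so passing was common, and with the 2-fold limit 4.6% passed and none of the 5 arms did. The test compares these 2 libraries and covers counting error only. Which source of variation separates them was not tested.

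The names whose level was most like each guide were found by Euclidean distance of log2(RPM + 1) over the 2 libraries. For miR-146a-5p they were miR-148b-3p (2012 and 2485 RPM, distance 0.38), miR-100-3p (1631 and 1940 RPM, 0.39) and miR-28-3p (2048 and 2395 RPM, 0.41). For miR-146b-5p they were miR-197-3p (339 and 386 RPM, 0.27), miR-106b-5p (326 and 343 RPM, 0.29) and miR-501-3p (230 and 331 RPM, 0.38). MiR-501-3p was below miR-146b-5p in both libraries, outside the counting intervals of that guide (272 to 292 RPM in replicate 1 and 384 to 404 RPM in replicate 2). The other 5 neighbours were above their guide in replicate 1 and below it in replicate 2, so their order was not resolved.

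Many other miRNAs linked to inflammatory signalling were abundant in these cells. Of 22 names listed for such a link, 20 had a row and 16 of these (80%) reached 10 RPM in both libraries, as did 22.4% of all 1497 names. Their median was 1580 RPM, against 0.588 RPM over all names. The list holds well-studied miRNAs and was chosen with earlier results of these data known, so nothing particular to it can be read from these values. The highest were miR-21-5p, raised in many cancers (59733 and 47975 RPM), miR-10a-5p, encoded in the HOXB cluster (22335 and 24738 RPM), miR-16-5p, a repressor of cell cycle genes (10598 and 14465 RPM), miR-99b-5p (9922 and 14414 RPM) and miR-222-3p, which represses the cell cycle inhibitor p27 (9376 and 9111 RPM). MiR-146a-5p stood below 10 of the 20 and miR-146b-5p below 14.

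At the low end were miR-187-3p (0.555 and 0.519 RPM), miR-147b, induced through Toll-like receptors (1.48 and 2.33 RPM), and miR-199a-5p (1.85 and 3.37 RPM). By mean level, miR-155-5p stood above miR-187-3p only. In replicate 1 miR-147b and miR-199a-5p lay inside the counting interval of miR-155-5p (0.776 to 2.29 RPM), so that order was not resolved there. The myeloid miR-223-3p and the neuronal miR-124-3p had no row. None of the 16 names with a mean of 10 RPM or more differed by over 2-fold between the libraries, where 1.73% of the 346 did, and 7 were higher in replicate 2 and 9 in replicate 1.

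Since miR-155 is abundant in lymphocytes and myeloid cells, the markers of blood cells were read beside it. MiR-142-5p had 24 and 34 reads, miR-150-5p 22 and 29, miR-142-3p 4 and 5 and miR-451a 1 and 0, while miR-223-3p and miR-144-3p had no row. The 5 listed markers summed to 176 and 205 RPM, nearly all of it miR-486-5p. With 15 reads in each library, miR-155-5p stood below miR-142-5p and miR-150-5p and above miR-142-3p. In replicate 1 miR-142-5p (2.22 RPM) and miR-150-5p (2.03 RPM) lay inside the counting interval of miR-155-5p (0.776 to 2.29 RPM). Their order was thus not resolved in that library. The endothelial markers miR-126-5p (161 and 239 RPM) and miR-126-3p (24.8 and 25.9 RPM) were higher than miR-155-5p in both libraries. The part of other cells in these reads was not tested.

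**Figure D5:**
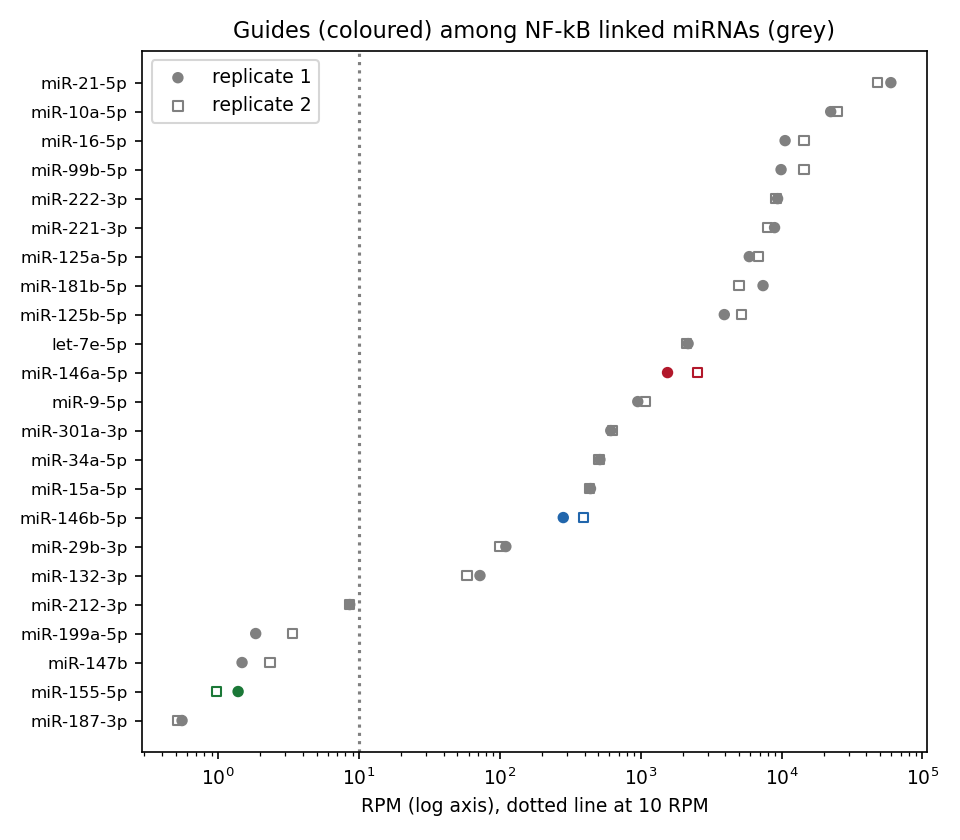
RPM on a log axis of the 3 guides (coloured) and the 20 listed names linked to inflammatory signalling (grey), filled circles for replicate 1 and open squares for replicate 2, ordered by mean; the dotted line marks 10 RPM. MiR-146a-5p and miR-146b-5p lie in the middle of the list and miR-155-5p next to last.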

How the data were processed

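The labels' protocols state that 1000000 A375 cells were seeded per dish and given DMSO for 48 h, and name the miRNeasy kit and Illumina library preparation. CASAVA 1.8 and cutadapt 1.2.1 are named in the submitters' processing notes. No source used here gives the aligner, miRNA annotation or build. The authors deposited RPM for each pair of hairpin and mature name, and each column sums to 1000000. In both columns 100% of values were whole multiples of the smallest one (within 0.01 reads), so reads were recovered. Columns were matched by sample description, and 0 other value columns were present.

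Where a mature name had several hairpins, the highest copy was used; the 5 arms have 1 each. Logarithms used a pseudocount of 1 RPM. Calls between libraries needed 2-fold and a mean of 10 RPM. Fisher's exact tests covered names with at least 10 reads in sum, with an adjusted limit of 0.05, and were tested on simulated data. The simulated reads held counting error only, so they check the code and not how the test performs on these libraries. Python 3.11.15, pandas 2.3.3 and scipy 1.17.1 were used. The miRNAs and lists were chosen with earlier results of these data known. Named miRNAs were the listed arms, names with the same seed, 3 neighbours in level, 2 hairpins on each side in arm share, the 5 highest and 3 lowest listed names linked to NF-kB, and the markers.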

Additional observations from a re-analysis of the deposited data

How the results depend on the processing

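The sign of each arm's library difference was the same under every scaling run. A pseudocount cannot change that sign or the sign of the paralog ratio, so those settings are no check of it. The counting intervals of the library difference included 0 for miR-146a-3p (-0.74 to 0.30), miR-146b-3p (-0.88 to 0.07) and miR-155-5p (-0.62 to 1.65). For these arms the sign was thus not resolved. Taking RPM of the total with copies reduced raised miR-146a-5p to 2614 RPM, miR-146b-5p to 433 RPM and miR-155-5p to 1.52 RPM. That total is smaller by construction, so every name rises. Scaling by the median ratio moved the library difference of miR-146a-5p to -0.81 and that of miR-146b-5p to -0.58, and leaving the most abundant miRNA, miR-100-5p, out of the total moved the first to -0.74. The count of names past the fold limit, 6 of 346, was 25 at 1.5-fold (miR-146a-5p among them, 7.23% of names) and 1 at 3-fold. It was 12 of 633 (1.9%) with a minimum of 1 RPM, 2 of 171 (1.17%) with 100 RPM and 13 of 1497 (0.868%) with none, against 1.73% of the 346. It was 40 of 869 by Fisher's exact test with the 2-fold limit, which also took lower names (10 reads in sum) and added 0.5 reads in place of 1 RPM, so this count is not set by the test alone. With a pseudocount of 1 RPM on each arm the 5p share of mir-146b was 97.9%. Leaving out a replicate, which with 2 libraries gives the other library's value and is no check of stability, moved miR-146a-5p between 1551 and 2527 RPM, miR-146b-5p between 282 and 394 RPM, miR-155-5p between 0.972 and 1.39 RPM and the log2 ratio of the paralogs between 2.45 and 2.68. The total with copies reduced was added for library differences after seeing the data. No rank of mir-146b at 1000 RPM could be had, as the hairpin is below it. No paired analysis was possible because there is 1 group. At 15 reads per library, depth limits what can be said of miR-155-5p.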
